A study of Arabidopsis thaliana with 18 samples.

Results

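Introns longer than 300 bp are the upper end of the length range in Arabidopsis thaliana, whose introns are mostly short. They were followed here in gemin2 mutant plants and in wild type plants, at 22 °C and in the cold. The gemin2 mutant and the wild type (WT), both of the Col ecotype, were raised on Murashige and Skoog medium in continuous white light, and whole plants of 9 days were taken at 22 °C, after 1 h at 10 °C or after 24 h at 10 °C. Poly(A) RNA of 18 libraries was sequenced, with 3 libraries in each of the 6 groups, which are gemin2 and WT at 22 °C, gemin2 and WT after 1 h of cold, and gemin2 and WT after 24 h of cold. The labels name no allele, and they do not say whether the 3 libraries of a group came from separate plantings, so p-values measure the spread between libraries, which may be technical.

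The deposited intron sheet holds 120717 introns of 22235 loci, and 14221 of these introns are longer than 300 bp. An intron was kept if its locus had 2 or more introns in the sheet and if the intron averaged 10 counts or more over the 18 libraries. Its gene had to average 50 counts or more, with no library under 10. Of 12779 long introns in genes with several introns, 10343 had a gene that passed, and 2160 introns in 1950 loci passed on their own counts as well. An intron could pass through the counts of a single genotype, so every count below describes the introns that passed and not all long introns. The value followed is the intron count as a percent of the count of its gene, called the intron percent here. It rises with intron length, it is not a strict share, and in 27 of the 2160 introns the intron count was above the gene count in some library. Fewer cells of a type that use an intron and less intron RNA per cell cannot be told apart in whole plants.

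An intron is removed from the precursor RNA by the spliceosome, whose small nuclear ribonucleoproteins (snRNPs) find the donor site at the start of the intron and the acceptor site at its end. GEMIN2 belongs to the complex that loads a ring of Sm proteins on the RNAs of these snRNPs, a step they need before they can splice. In plants the long introns often lie in the 5′ untranslated region (5′ UTR) or directly behind the start codon, where some of them are known to raise the expression of their gene.

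The splice sites of introns described below are printed here, so that the ends of introns with more reads in gemin2 can be set beside those of introns with fewer. Each donor line has the last 3 exon bases and the first 12 intron bases, and each acceptor line the last 24 intron bases and the first 3 exon bases, 5′ to 3′ on the strand of the gene, with the 2 outermost intron bases in capitals. The sequences were read from the RefSeq genome of Arabidopsis at the TAIR10 positions given in the sheet. The first 6 introns had more reads in gemin2. They belong to ARF1 (AT1G59750, chr1:21979620-21980383, plus strand), RCD1 (AT1G32230, chr1:11612369-11612737, plus strand), LOS1 (AT1G56070, chr1:20971112-20971665, minus strand), CBL3 (AT4G26570, chr4:13410169-13410942, minus strand), FLK (AT3G04610, chr3:1254283-1254768, minus strand) and AT4G17140 (chr4:9632066-9632486, minus strand).
ARF1 donor: aagGTtcgattttta
ARF1 acceptor: ctcttcttttgttttgttgcccAGgta
RCD1 donor: gagGTccgtcatgtt
RCD1 acceptor: aagttgctggtttggatgttgcAGgaa
LOS1 donor: aagGTtagtcccttg
LOS1 acceptor: tatgtttttgtgatgatattgcAGaga
CBL3 donor: ggcGTaaggcttttt
CBL3 acceptor: tatctcatttccttcccatcgcAGaat
FLK donor: cacGTaatttcactg
FLK acceptor: atctggactctgaatttatgtcAGcgc
AT4G17140 donor: cagGTgtgtccttta
AT4G17140 acceptor: taaaccacatacttgttttctcAGtca

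The next 4 introns had fewer reads in gemin2. They belong to MES2 (AT2G23600, chr2:10042825-10043266, minus strand), AT1G10890 (chr1:3628230-3629097, plus strand), ATO (AT5G06160, chr5:1865696-1866124, minus strand) and U2AF65A (AT4G36690, chr4:17296227-17296659, minus strand).
MES2 donor: aagGTatatatctct
MES2 acceptor: tttttcgtaattactatgaaaaAGttt
AT1G10890 donor: cagGTgataccccta
AT1G10890 acceptor: tactttattttgggtaatgttcAGgcg
ATO donor: cttGTacgctttctc
ATO acceptor: accttgattcttgtttgttgtaAGgtt
U2AF65A donor: cagGTatatctcttt
U2AF65A acceptor: tattaacctgtttttcttttgtAGgcc

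All 10 introns start with GT and end with AG. Over the 2156 long introns with sequence, 2077 had these ends (96.3%), 18 had GC and AG, and 12 had the donor of the minor, U12-type spliceosome. Lengths ran from 301 to 7384 bp with a median of 483.5 bp. The annotation placed 340 introns in a 5′ UTR, 1526 in coding sequence and 89 in a 3′ UTR, while the class differed by transcript in 30, lay in noncoding transcripts in 37 and was not annotated in 134. Of the 2022 annotated long introns, 878 were the first of their transcript (43.4%), against 12.9% of the tested introns of up to 100 bp. An exon of another transcript of the same gene overlapped 843 long introns, and an exon of another gene overlapped 286. The library kit does not mark strand, so reads in these 286 introns may belong to the other gene, and values of those named below carry a remark.

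Libraries held between 15675913 and 53766089 gene counts. At 22 °C, WT libraries A to C held 20470103, 15675913 and 19921499, against 28154655, 30333921 and 33098155 in gemin2. Of the long introns, 71, 145 and 65 had no count in these WT libraries, and 12, 6 and 18 had none in those of gemin2. The part of this depth in the calls below was not tested. GEMIN2 itself had 4.17 ± 0.125 CPM in gemin2 and 14.8 ± 2.01 CPM in WT at 22 °C (SD, n = 3 each), 3.09 ± 0.389 against 10.03 ± 1.07 CPM after 1 h and 5.53 ± 0.304 against 21.7 ± 1.74 CPM after 24 h. In gemin2 at 22 °C, genes of the chloroplast genome took 17.6% of the gene counts of library C, against 0.232% to 3.17% in the other 17 libraries. Library A stood apart from B and C in 3 groups by a chi-square per degree of freedom over the long introns. In gemin2 after 1 h it was 8.22 and 6.77 for A with B and C, against 2.93 for the pair without A. The values were 6.89 and 5.17, against 2.93, in gemin2 after 24 h, and 8.77 and 4.70, against 3.11, in WT after 24 h. Counts over all long introns, by position and by gene list are given without these 4 libraries as well, each left out of its own comparison, and the part that they play was not tested. Tissue markers also differed between the genotypes. At 22 °C all 3 leaf markers were lower in gemin2 on average, and their sum ran from 46485 to 55704 CPM in gemin2 and from 64835 to 67692 CPM in WT. It overlapped after 1 h and after 24 h, with 2 and 3 of the 3 lower. Among them RCA, the activase of Rubisco, had 6231 CPM in gemin2 and 11861 CPM in WT at 22 °C. Of the 4 root markers, 4, 4 and 3 were lower in gemin2 at the 3 times. Their sum was 50.3 to 66.3 CPM in gemin2 and 65.6 to 73.03 CPM in WT at 22 °C, 61.5 to 67.98 against 78.5 to 86.9 CPM after 1 h, and 53.4 to 54.8 against 60.7 to 66.4 CPM after 24 h. Of the 4 markers of shoot apex, flower and seed, 2, 0 and 2 were lower in gemin2 at the 3 times, and their sum stayed under 8 CPM in every library. It was 3.87 to 5.11 CPM in gemin2 and 4.54 to 7.72 CPM in WT at 22 °C. After 1 h it was higher in gemin2, with 4.94 to 5.58 against 3.23 to 3.53 CPM. After 24 h it was 5.38 to 6.16 against 4.88 to 5.68 CPM. The part of these markers in the results below was not tested.

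Over all long introns the typical intron percent was higher in gemin2 in each condition, and by more in the cold. At 22 °C the median over the 2160 introns was 1.71%, 1.74% and 1.66% in gemin2 libraries A to C and 1.53%, 1.40% and 1.42% in WT libraries A to C. After 1 h it was 2.12%, 2.47% and 2.31% in gemin2, against 1.56%, 1.63% and 1.66% in WT. After 24 h it was 2.09%, 2.54% and 2.60% in gemin2, against 1.28%, 1.73% and 1.58% in WT. In each condition the lowest gemin2 library was above the highest WT library. This summary over the members was not tested. The mean of the 3 libraries was 1.70 ± 0.042% in gemin2 and 1.45 ± 0.068% in WT at 22 °C, 2.30 ± 0.173% and 1.62 ± 0.051% after 1 h, and 2.41 ± 0.281% and 1.53 ± 0.230% after 24 h (SD, n = 3 each). Introns of up to 100 bp were higher in gemin2 as well, so the direction is not particular to long introns. Their means were 0.644% in gemin2 and 0.519% in WT at 22 °C, 0.791% and 0.597% after 1 h, and 0.793% and 0.572% after 24 h. All long intron counts summed as a percent of the summed counts of their genes did not follow the medians, with 2.69% in gemin2 and 2.77% in WT at 22 °C, 2.99% and 2.59% after 1 h, and 3.44% and 3.48% after 24 h, so that gemin2 was above WT after 1 h alone. This sum gives more weight to introns with many counts, whereas the median gives each intron the same weight. Why the 2 summaries differ was not tested.

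**Figure D1:**
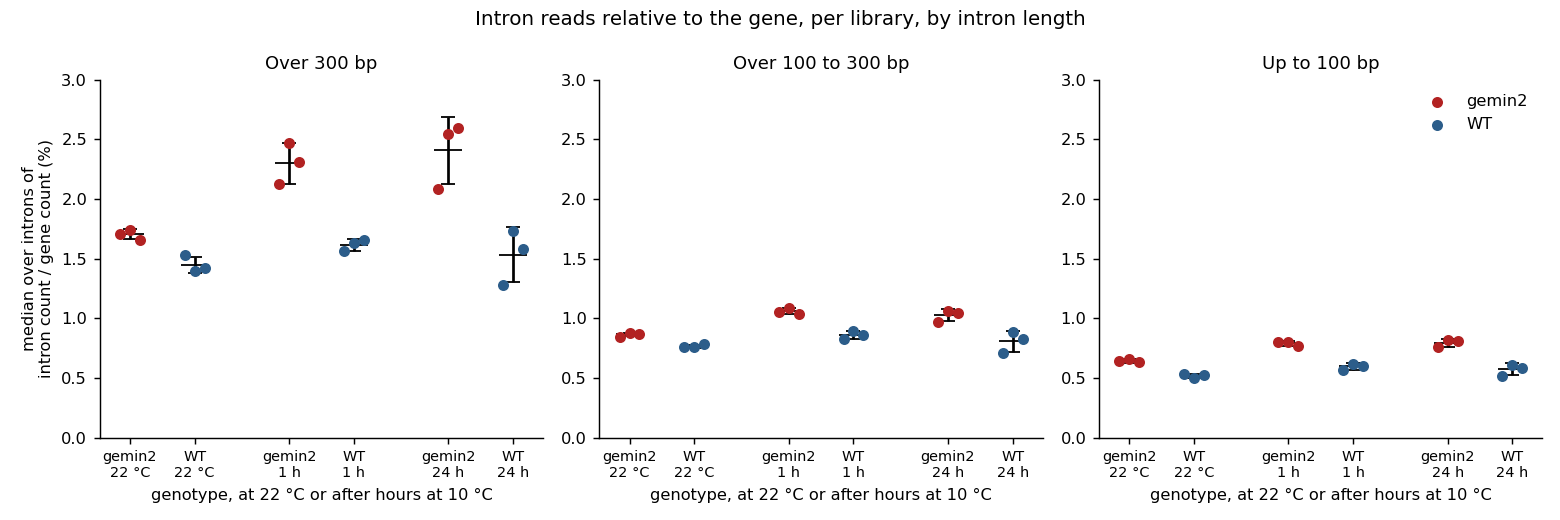
Median intron percent (intron count over gene count, vertical axis) in each library for introns over 300 bp, over 100 and up to 300 bp, and of up to 100 bp, with gemin2 in red left of WT in blue at 22 °C and after 1 h and 24 h at 10 °C. Points are libraries, bars the mean and SD of 3 libraries; for long introns the gemin2 libraries sit between 1.66% and 2.60% and the WT libraries between 1.28% and 1.73%.

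Single introns were tested with edgeR's quasi-likelihood test, in which the count of the gene entered as an offset, so that a log2 change is one of intron reads per gene read and higher means more of them in gemin2. Adjusted p-values are Benjamini-Hochberg values over all 9366 tested introns of any length, and an intron is called where the adjusted p is under 0.05. At 22 °C, 103 long introns were higher in gemin2 (4.77% of them), beside a background of 4.06% among all tested introns. Another 36 were lower (1.67%), beside 0.982%. After 1 h at 10 °C the calls were 347 higher (16.1%, background 12.1%) and 51 lower (2.36%, background 1.69%). After 24 h they were 446 higher (20.6%, background 15.3%) and 58 lower (2.69%, background 1.63%). The median log2 change of long introns was 0.09, 0.29 and 0.31 at the 3 times, and that of all tested introns 0.09, 0.24 and 0.23. With the median of each group set to 0, a choice made after the data were seen, 77 long introns were higher and 59 lower at 22 °C, 231 and 99 after 1 h, and 322 and 108 after 24 h. With each library centred instead, 74 of the 175 called long introns were higher at 22 °C, 199 of 342 after 1 h and 254 of 505 after 24 h, and the others were lower, so the balance of higher and lower calls depends on the scaling and turns at 22 °C.

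The counts moved when libraries that stand apart were left out. Without gemin2 library C, 73 long introns were higher and 23 lower at 22 °C. Without gemin2 library A, 358 were higher and 56 lower after 1 h, and 472 and 53 after 24 h. Without WT library A of 24 h, 345 were higher and 54 lower at that time. Long and other introns of the same gene could be compared in 844 loci, where the median difference of their log2 changes was -0.05 at 22 °C and 0.06 at both cold times.

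**Figure D2:**
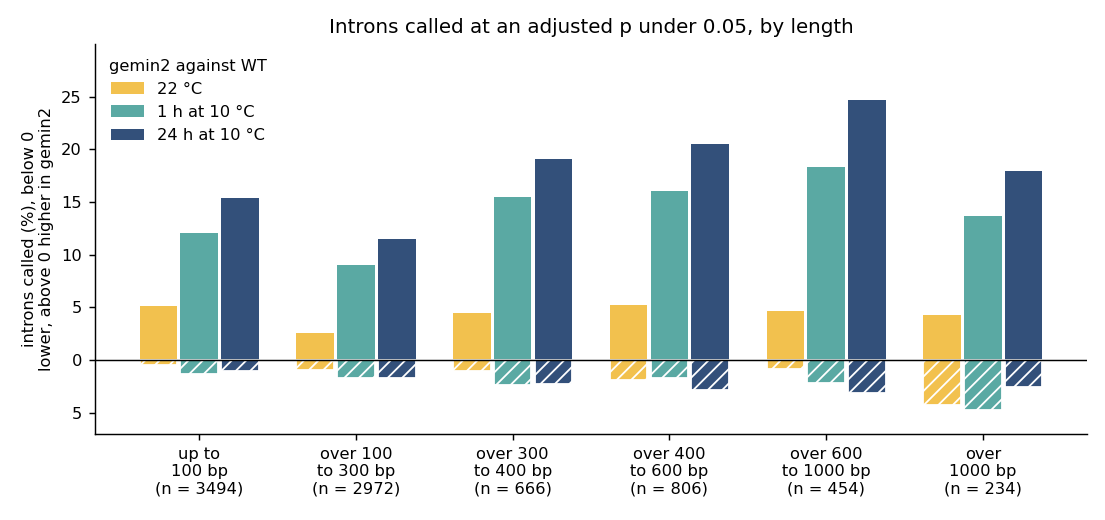
Percent of tested introns called at an adjusted p under 0.05 (vertical axis, above 0 higher and below 0, hatched, lower in gemin2 than in WT) by intron length, at 22 °C and after 1 h and 24 h at 10 °C. After 24 h the bars for higher introns stand at 15.4% for introns of up to 100 bp, at 11.5% for those over 100 and up to 300 bp, and at 24.7% for those over 600 and up to 1000 bp.

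Within the long introns the share of calls differed by position in the gene, most of all for the 5′ UTR. Of the 340 introns in a 5′ UTR, 42 were higher and 5 lower in gemin2 at 22 °C, 114 and 4 after 1 h, and 145 and 3 after 24 h, which is 12.4%, 33.5% and 42.6% higher. Their median log2 change was 0.51, 0.79 and 0.93. Of the 526 coding introns that were first in their transcript, 20, 99 and 113 were higher (3.80%, 18.8% and 21.5%) with medians of 0.13, 0.41 and 0.43. Of the 1000 later coding introns, 25, 102 and 150 were higher (2.50%, 10.2% and 15.0%) and 18, 29 and 33 lower. The median of these later introns was -0.02, 0.18 and 0.19, and it ran from -0.26 to 0.25 after 24 h over 18 settings, and it was below 0 in 4 of them. The 5′ UTR median was above 0 in all 18 settings and ran from 0.48 to 1.28 after 24 h. Without gemin2 library C, 13 first coding introns were higher and 4 lower at 22 °C, and 16 and 10 of the later ones. Without gemin2 library A these counts were 92 and 14 for first and 110 and 31 for later introns after 1 h, and 118 and 14, and 159 and 30, after 24 h. Without WT library A they were 90 and 13, and 107 and 31, after 24 h. The 89 introns of 3′ UTRs had 7 higher and 3 lower calls after 24 h.

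Leader introns, those of the 5′ UTR, also had more calls at other lengths. After 24 h, 30.6% of 206 leader introns over 100 and up to 300 bp, 36.8% of 57 of up to 100 bp and 41.8% of 91 in genes with a single intron were higher, and 38.5% of all 694 tested leader introns. The pattern is therefore not particular to introns over 300 bp. Being first in the transcript went with more calls among long introns, where 29.4% of first and 14.9% of later introns were higher after 24 h, whereas for introns of up to 100 bp these values were 16.6% and 15.4%. The difference between these 2 gaps was not tested. Of the 87 long leader introns that no other exon overlaps, 48 were higher and 1 lower after 24 h, with a median log2 change of 1.28. Without gemin2 library C, 9.71% of the 340 leader introns were higher at 22 °C, without gemin2 library A 34.1% after 1 h and 43.2% after 24 h, and without WT library A 35.3% after 24 h.

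**Figure D3:**
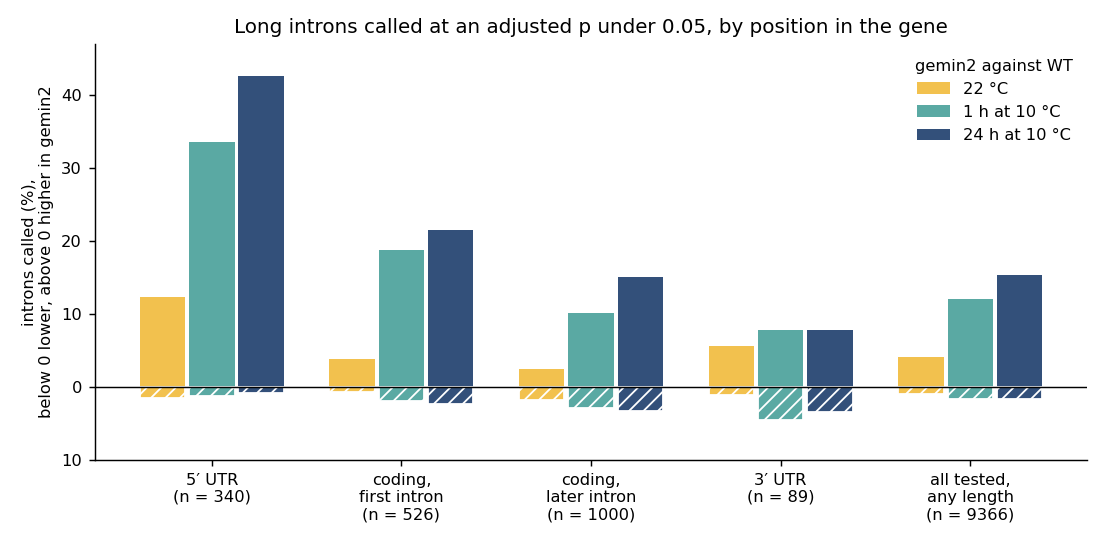
Percent of introns called at an adjusted p under 0.05 (vertical axis, above 0 higher and below 0, hatched, lower in gemin2 than in WT) for long introns by position in the gene and for all 9366 tested introns, at 22 °C and after 1 h and 24 h at 10 °C. Leader introns reach 42.6% higher after 24 h, first coding introns 21.5%, later coding introns 15.0% and all tested introns 15.3%.

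**Figure D4:**
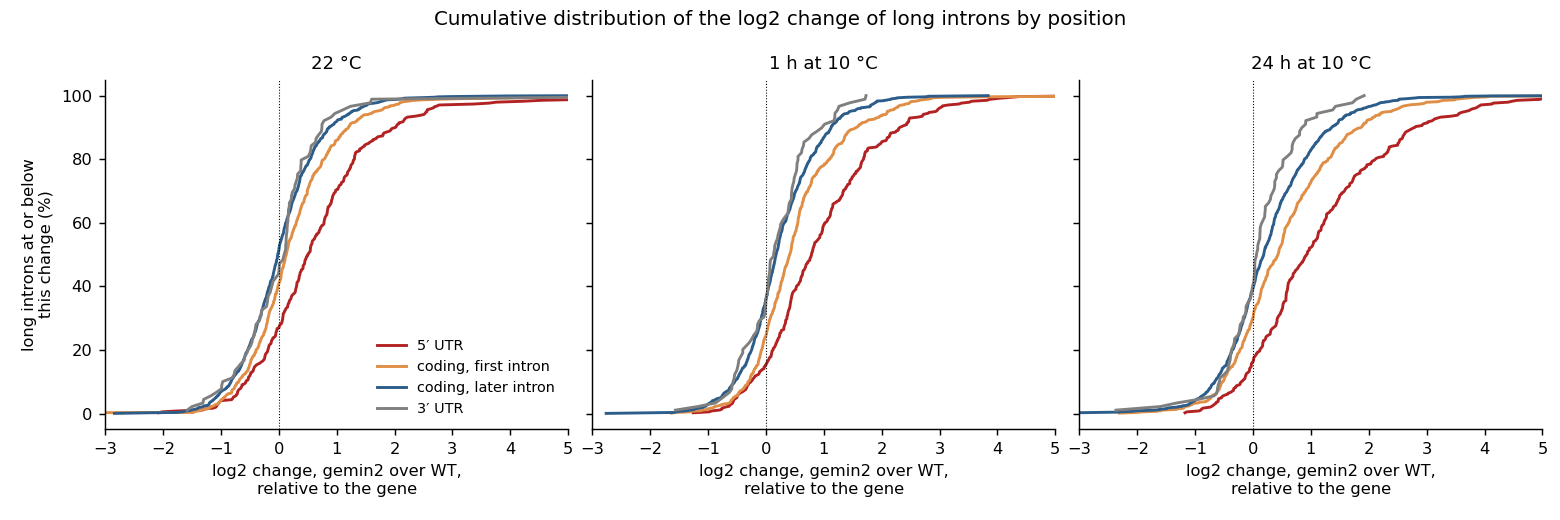
Share of long introns at or below a log2 change of gemin2 over WT (horizontal axis, relative to the gene), as cumulative curves for 4 positions in the gene and 3 conditions, drawn from -3 to 5. The 5′ UTR curve lies right of the others, with medians of 0.51, 0.79 and 0.93.

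The leader introns described next were named for the size of their change. ARF1 encodes an auxin response factor, which binds auxin-responsive promoters, and the intron of 764 bp is the first of 14. Its intron percent was 2.63%, 2.44% and 2.56% in gemin2 libraries A to C at 22 °C, against 0.348%, 0.134% and 0.107% in WT. After 1 h the values were 5.18%, 4.01% and 5.87% in gemin2, against 0.221%, 0.344% and 0.132% in WT. After 24 h they were 10.6%, 10.1% and 15.0% in gemin2, against 0%, 0.227% and 0.202% in WT. No gemin2 library came near a WT library in any condition, and the gemin2 level was higher at each later time. The log2 change was 3.63 ± 0.46 (SE) at 22 °C (edgeR adjusted p = 3.13e-06), where it was 4.32 without WT library A, then 4.38 ± 0.36 after 1 h (adjusted p = 3.19e-10) and 6.07 ± 0.37 after 24 h (adjusted p = 1.81e-13). The WT groups held 5, 9 and 6 intron counts in all, so the size of these changes is imprecise.

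RCD1 encodes a hub protein of stress responses that binds transcription factors, and its intron of 369 bp is the first of 7 and lies in the 5′ UTR. At 22 °C the intron percent was 0.215%, 0.131% and 0.288% in gemin2, against 0.127%, 0.142% and 0.0853% in WT, and these overlap. After 1 h it was 0.793%, 0.842% and 0.824% in gemin2, against 0%, 0.0195% and 0.124% in WT, with a log2 change of 3.82 ± 0.46 (adjusted p = 4.75e-07). At 24 h it was 1.70%, 2.04% and 3.05% in gemin2, against 0.105%, 0.116% and 0.0488% in WT, with a log2 change of 4.57 ± 0.39 (adjusted p = 3.48e-10). The groups overlapped at 22 °C and were apart at both cold times. WT library C held 7 of the 8 WT counts at 1 h, and without it the fitted change was 5.88.

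CBL3 encodes a calcium sensor of the calcineurin B-like family, and its intron of 774 bp is the first of 8. The intron percent was 12.8%, 7.09% and 9.89% in gemin2 at 22 °C, against 2.32%, 2.61% and 2.13% in WT. At 24 h it was 12.0%, 12.3% and 13.4% in gemin2, against 0.650%, 1.37% and 0.969% in WT. The groups did not overlap, and while the gemin2 values of these times overlap, all WT values were lower after 24 h. The log2 change was 2.07 ± 0.25 at 22 °C (adjusted p = 2.54e-06), 3.05 ± 0.25 after 1 h (adjusted p = 2.38e-10) and 3.52 ± 0.25 after 24 h (adjusted p = 8.30e-12). Exons of another CBL3 transcript overlap this intron.

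GBF3 encodes a bZIP factor that binds G-box elements. Its leader intron of 386 bp held 19 counts in gemin2 and 0 in WT at 22 °C, 74 and 3 after 1 h, and 106 and 4 after 24 h. The intron percent was 7.23%, 7.14% and 5.39% in gemin2 after 24 h, against 0%, 0.218% and 0.968% in WT, with a log2 change of 3.88 ± 0.60 (adjusted p = 1.49e-05) that was 5.18 without WT library C. In WT at 22 °C no count was seen in any library, and no fold is given there. The leader intron of AT3G24740 (576 bp) had 11.9 ± 0.056% in gemin2 and 1.23 ± 0.928% in WT at 22 °C, and 24.7 ± 5.46% against 2.03 ± 1.67% after 24 h (SD, n = 3 each). Its log2 change was 3.36 ± 0.50 at 22 °C and 3.56 ± 0.41 after 24 h, and 3.96 without WT library B and 4.16 without WT library C at these times.

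A large change was also seen in introns that made up a small percent of the gene count. LOS1 encodes elongation factor 2, which moves the ribosome along the messenger RNA, and its leader intron of 554 bp is the first of 3. The intron percent was 0.0843%, 0.0845% and 0.0794% in gemin2 at 22 °C, against 0.0299%, 0.0254% and 0.00475% in WT. After 24 h it was 0.531%, 0.759% and 0.768% in gemin2, against 0.0212%, 0.0488% and 0.0429% in WT. All gemin2 libraries were above all WT libraries at both times, on 1567 intron counts in gemin2 and 83 in WT after 24 h. The log2 change was 2.08 ± 0.44 at 22 °C (adjusted p = 0.00296), 3.15 ± 0.29 after 1 h (adjusted p = 3.76e-09) and 4.13 ± 0.26 after 24 h (adjusted p = 7.55e-13). Even so, the LOS1 intron stayed under 1% of the gene count, so a large fold goes with a small percent.

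EIF4A-2 encodes an RNA helicase of translation initiation. Its leader intron of 531 bp had 1.49 ± 0.196% in gemin2 and 0.071 ± 0.090% in WT after 24 h (SD, n = 3 each), a log2 change of 4.47 ± 0.50 (adjusted p = 5.44e-08) that was 5.72 without WT library A. The annotation has an exon of another locus inside this intron. AT5G60390 encodes elongation factor 1-alpha, a gene family of near-identical copies whose reads may be split between them. Its leader intron of 499 bp had 0.0798 ± 0.014% in gemin2 and 0.0602 ± 0.019% in WT at 22 °C, without a call. It was higher after 1 h (0.159 ± 0.023% against 0.0539 ± 0.012%, log2 change 1.56 ± 0.27, adjusted p = 1.17e-04) and after 24 h (0.185 ± 0.050% against 0.0584 ± 0.011%, log2 change 1.67 ± 0.24, adjusted p = 3.87e-06). This gene belongs to a list of 11 genes whose leader introns have been studied for raising expression, of which 6 held 1 long intron each. In that list 0 were higher and 1 lower at 22 °C, and 2 were higher and 0 lower at each cold time. AT1G07940, another gene of the elongation factor 1-alpha family, was also called higher after 1 h (log2 change 2.70). This call was lost without gemin2 library B or WT library B (adjusted p = 0.0606 and 0.0509) and without the gene's count in the model (adjusted p = 0.0611).

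Long introns in coding sequence rose in a smaller share, and some of them by as much. AT4G17140 has 65 introns, and the one of 421 bp that rose is number 14. Its intron percent was 1.61%, 1.59% and 1.80% in gemin2 at 22 °C, against 0.162%, 0.358% and 0% in WT. After 24 h it was 2.09%, 2.26% and 2.30% in gemin2, against 0%, 0.0171% and 0.0861% in WT. The gemin2 libraries lay close together and far above WT, which had 5 intron counts at 22 °C and 4 after 24 h. The log2 change was 3.45 ± 0.53 at 22 °C (adjusted p = 6.23e-05), 4.35 without WT library B and 2.75 without WT library C. After 24 h it was 5.82 ± 0.49 (adjusted p = 2.10e-10), and 7.04 without WT library C. SPL7 encodes the transcription factor that governs the response to low copper. Its first intron (396 bp) had 2.51 ± 0.850% in gemin2 and 0.399 ± 0.424% in WT at 22 °C (log2 change 2.76 ± 0.60, adjusted p = 0.00359), which was 2.09 without WT library A and 3.83 without WT library B.

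**Figure D5:**
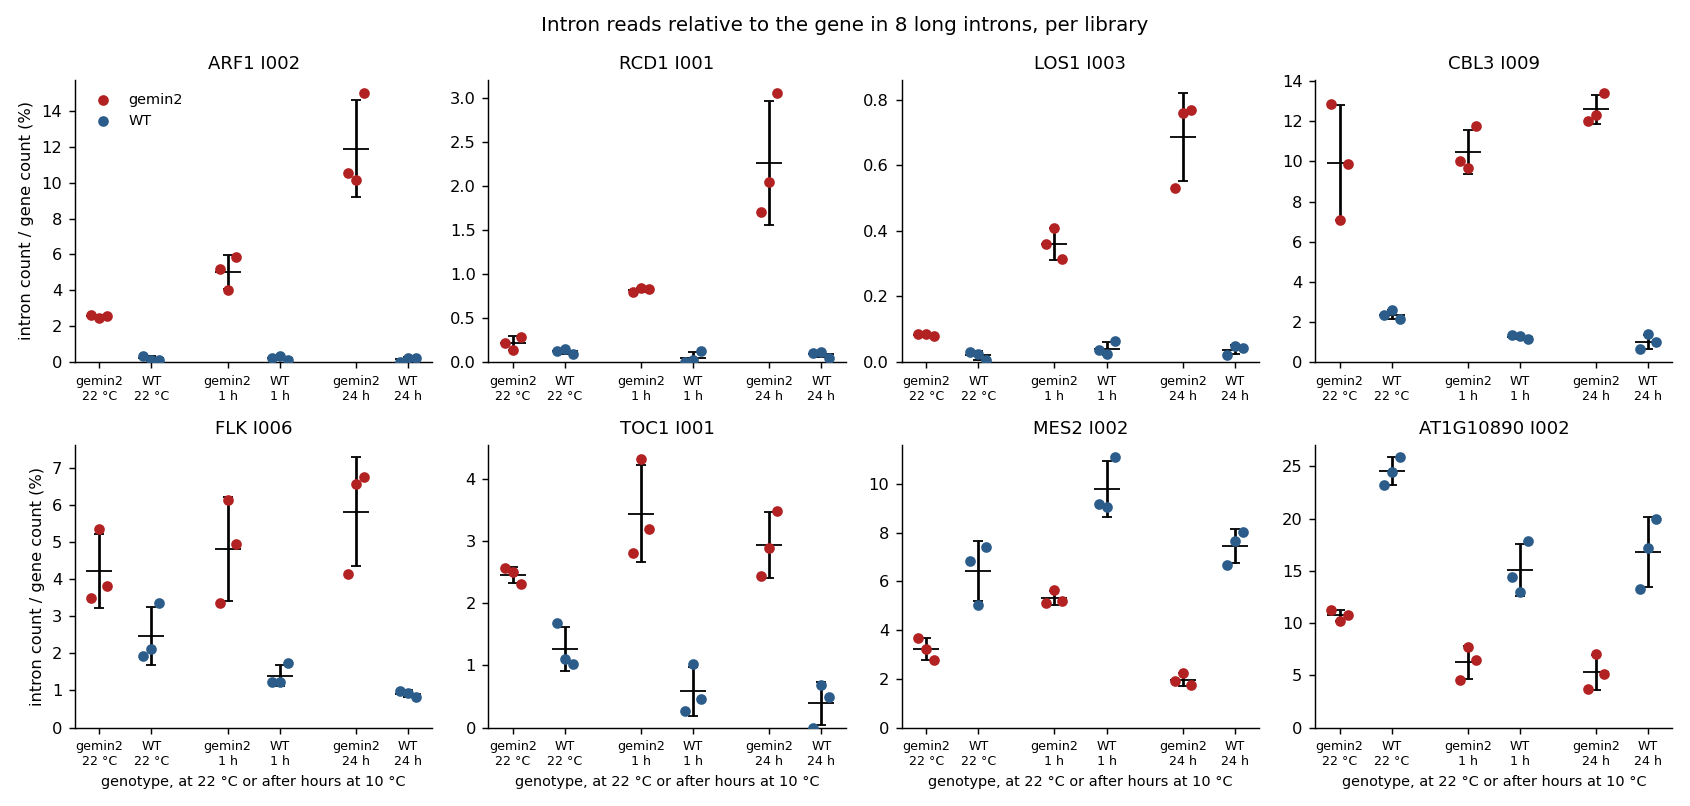
Intron percent (intron count over gene count, vertical axis, each panel with its own scale from 0) per library in 8 long introns, with gemin2 in red left of WT in blue at 22 °C and after 1 h and 24 h at 10 °C. Points are libraries, bars the mean and SD of 3 libraries; in ARF1 the gemin2 libraries reach 10.1% to 15.0% after 24 h, and in MES2 and AT1G10890 they lie below WT in every condition.

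Introns with fewer reads per gene read in gemin2 were the smaller group, 110 in any condition against 577 that were higher, which is 5.09% and 26.7% of the long introns, beside 3.45% and 19.99% of all tested introns. Without gemin2 library C of 22 °C and gemin2 library A of both cold times these counts were 100 and 592, and with WT library A of 24 h left out in place of gemin2 library A of that time 105 and 513. Of these 110, 11 lay in a 5′ UTR, against 171 of the 577 and 340 of all 2160 long introns. An exon of another gene overlapped 22.7% of the 110, against 8.15% of the 577 and 13.2% of all long introns. MES2 encodes a methyl esterase of plant hormone esters. Its first intron (442 bp) had 3.68%, 3.22% and 2.75% in gemin2 at 22 °C, against 6.86%, 5.05% and 7.42% in WT. After 24 h it had 1.91%, 2.24% and 1.73% in gemin2, against 6.69%, 7.65% and 8.03% in WT. All gemin2 libraries were below all WT libraries, and the log2 change was -1.01 ± 0.19 at 22 °C (adjusted p = 8.48e-04), -0.88 ± 0.17 after 1 h (adjusted p = 3.48e-04) and -1.92 ± 0.22 after 24 h (adjusted p = 9.81e-08).

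The first intron of AT1G10890 (868 bp) also fell in every condition. It had 11.3%, 10.2% and 10.7% in gemin2 at 22 °C, against 23.2%, 24.5% and 25.9% in WT. After 24 h the values were 3.69%, 7.05% and 5.07% in gemin2, against 13.3%, 17.2% and 19.97% in WT. The log2 change was -1.19 ± 0.20 (adjusted p = 1.79e-04) at 22 °C, -1.29 ± 0.20 (adjusted p = 2.9e-05) after 1 h and -1.67 ± 0.22 (adjusted p = 8.59e-07) after 24 h. Other transcripts of this gene have an exon there. In AT5G53850, which encodes an enzyme of methionine salvage, the intron of 388 bp had 1.72 ± 0.115% in gemin2 and 5.34 ± 1.78% in WT at 22 °C, a log2 change of -1.63 ± 0.29 (adjusted p = 4.10e-04). It was also lower in both cold conditions, as were introns of AT3G20430 and GLT1. The GLT1 call at 22 °C and that after 1 h were lost without WT library A (adjusted p = 0.0738 and 0.0643). In all, 7 long introns were lower in all 3 conditions and 59 higher in all 3, which is 0.324% and 2.73% of the long introns, beside 0.160% and 2.55% of all tested introns. Without the same libraries these counts were 7 and 50, or 8 and 47.

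Genes of the splicing machinery held few long introns, and these did not move one way. Of 42 listed spliceosome and snRNP genes, 12 had 1 long intron each, of which 2 were higher and 1 lower in gemin2 at 22 °C, 1 and 1 after 1 h, and 2 and 2 after 24 h, with median log2 changes of -0.08, -0.01 and 0.08. The long intron of GEMIN2 itself was called higher at 22 °C and after 24 h (log2 change 1.32 and 1.91). Without the gene's count in the model its changes were -0.51 and -0.34. Its call at 22 °C was also lost without gemin2 library A, B or C (adjusted p = 0.138, 0.102 and 0.0995). U2AF65A, which encodes the large subunit of U2AF, the factor that binds the pyrimidine tract before the acceptor site, had 0.146%, 0.175% and 0.185% in the 433 bp intron in gemin2 after 24 h, against 0.678%, 0.811% and 0.635% in WT. This intron fell by 2.04 ± 0.42 on the log2 scale (adjusted p = 4.77e-04), and the groups did not overlap. At 22 °C its gemin2 libraries ran from 0.188% to 0.673% and its WT libraries from 0.526% to 0.930%, without a call. The intron at the same rank of U2AF65B (AT1G60900, 630 bp), the paralog, fell by 0.90 ± 0.21 after 24 h (adjusted p = 0.00202).

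ATO encodes the SF3a60 subunit of the U2 snRNP. Its first intron (429 bp) had 0.776%, 0.626% and 0.577% in gemin2 after 24 h, against 2.96%, 3.64% and 3.04% in WT, a log2 change of -2.30 ± 0.34 (adjusted p = 4.93e-06). At 22 °C the groups overlapped, and the call after 1 h (log2 change -1.01 ± 0.33, adjusted p = 0.0377) was lost without any 1 of 5 of the 6 libraries. LSM1B (AT3G14080), a subunit of the LSm ring that acts in decapping of messenger RNA, had 11.4 ± 3.59% in gemin2 and 1.90 ± 1.27% in WT after 1 h in its first intron (603 bp), a log2 change of 2.48 ± 0.42 (adjusted p = 7.92e-05) that was 3.09 without WT library C. Its call at 22 °C was lost without gemin2 library C or WT library A (adjusted p = 0.0819 and 0.164), and that after 24 h without WT library A (adjusted p = 0.0587).

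Among 32 genes of SR proteins, hnRNP proteins and nonsense-mediated decay, 16 held 18 long introns, of which 0 were higher and 1 lower at 22 °C, 3 and 0 after 1 h, and 3 and 3 after 24 h. SR proteins bind exons and help to choose splice sites. In SR34 the intron of 465 bp had 0.878%, 1.00% and 0.934% in gemin2 after 24 h, against 1.75%, 1.84% and 2.06% in WT, and it fell by 1.00 ± 0.18 on the log2 scale (adjusted p = 1.12e-04). In RS31 the intron of 798 bp had 16.2 ± 3.85% in gemin2 and 7.23 ± 1.25% in WT after 1 h, and it rose by 1.15 ± 0.20 (adjusted p = 1.07e-04), against 0.47 without the gene's count in the model (adjusted p = 0.0517). The introns of these SR genes thus differed in direction, and both genes are known to be alternatively spliced.

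Clock, flowering and cold genes were described from lists chosen with earlier results in view. Of 26 clock genes, 7 held 1 long intron each, of which 1 was higher and 1 lower at 22 °C, 2 and 0 after 1 h, and 2 and 1 after 24 h. TOC1 (AT5G61380), a repressor in the evening part of the clock, had 2.57%, 2.50% and 2.32% in its first intron (317 bp) in gemin2 at 22 °C, against 1.68%, 1.10% and 1.02% in WT, without a call. After 24 h it had 2.43%, 2.90% and 3.49% in gemin2, against 0%, 0.682% and 0.484% in WT. This intron rose by 2.68 ± 0.42 on the log2 scale after 24 h (adjusted p = 1.45e-05), by 3.36 without WT library B. Of 24 flowering genes, 7 held 9 long introns, with 0 higher at 22 °C, 1 after 1 h and 4 after 24 h, and 0 lower in each. Calls after 24 h in AGL20, MAF2 and FCL3 (log2 change 2.63, 1.89 and 1.77) depended on the setting. That of AGL20 was lost without gemin2 library A, B or C and without WT library A or B. Those of MAF2 and FCL3 were lost without the gene's count in the model (adjusted p = 0.34 and 0.152), and that of MAF2 without gemin2 library B (adjusted p = 0.206). FLK encodes an RNA-binding protein with KH domains that promotes flowering. Its leader intron (486 bp) had 4.13%, 6.56% and 6.75% in gemin2 after 24 h, against 0.986%, 0.937% and 0.815% in WT. The log2 change was 0.79 ± 0.26 at 22 °C (adjusted p = 0.0812), 1.76 ± 0.25 after 1 h (adjusted p = 7.07e-06) and 2.67 ± 0.26 after 24 h (adjusted p = 3.45e-09).

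Of 26 cold response genes, 4 held 5 long introns, of which 1 was higher and 0 lower at 22 °C, 2 and 1 after 1 h, and 1 and 0 after 24 h, with median log2 changes of 0.49, 1.16 and 0.25. CAMTA2 (AT5G64220), a calmodulin-binding activator of cold-induced genes, had 3.22%, 3.48% and 3.85% in its first intron (308 bp) in gemin2 after 1 h, against 0.317%, 0.905% and 0.500% in WT. It rose by 2.49 ± 0.39 on the log2 scale (adjusted p = 3.26e-05), and by 2.28 ± 0.40 after 24 h (adjusted p = 8.66e-05), which was 2.97 without WT library B. Its call at 22 °C (1.92 ± 0.49, adjusted p = 0.0148) was lost without gemin2 library C, WT library B or WT library C (adjusted p = 0.0523, 0.0732 and 0.0867). The lower call after 1 h was the leader intron (336 bp) of COR15A, which encodes a cold-induced protein of the chloroplast. This intron is a leader intron in the transcripts that have it. Its reads may include those of an exon of another COR15A transcript, which was not tested. The intron had 4.87%, 3.54% and 4.35% in gemin2, against 8.55%, 10.4% and 6.23% in WT, a log2 change of -0.98 ± 0.28 (adjusted p = 0.0303). This call was lost without gemin2 library B or C (adjusted p = 0.127 and 0.0841) and without WT library A or B (adjusted p = 0.0761 and 0.13). COP1, a ubiquitin ligase that holds back light responses and 1 of 3 light signalling genes with a long intron, had 2.41%, 1.89% and 2.04% in its sixth intron (527 bp) in gemin2 after 1 h, against 0.457%, 0.433% and 0.608% in WT. Its log2 change was 2.04 ± 0.50 (adjusted p = 0.00455), with no call at 22 °C or after 24 h. In the 3 JAZ repressor genes that held 4 long introns, edgeR called 0 in any condition, with 0, 1 and 0 at an unadjusted p under 0.05. Without gemin2 library C at 22 °C, the lists had 0 higher and 1 lower calls for clock genes, 0 and 0 for cold genes, 0 and 1 for the spliceosome and 0 and 0 for the studied leader introns. In the cold, leaving out library A of gemin2 or of WT moved no list's count in either direction by more than 1.

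More long introns were called for cold in gemin2 than in WT, a difference of counts that was not tested. The WT libraries at 22 °C were less deep than those of gemin2, and the part of depth in this difference was not tested either. In gemin2, 1 h of cold gave 210 higher and 23 lower long introns (9.72% and 1.06%, background 6.85% and 0.566%), and 24 h gave 354 and 56 (16.4% and 2.59%, background 11.5% and 1.63%). In WT, 1 h gave 92 higher and 77 lower (4.26% and 3.56%, background 3.80% and 2.24%), and 24 h gave 76 and 64 (3.52% and 2.96%, background 2.43% and 1.62%). The comparisons within a genotype share its libraries at 22 °C. Without gemin2 library C of 22 °C, 129 were higher and 17 lower in gemin2 after 1 h and 254 and 42 after 24 h, and without WT library A of 24 h, 65 and 35 in WT after 24 h. Without gemin2 library A of the cold time, 170 were higher and 13 lower in gemin2 after 1 h and 343 and 49 after 24 h. With the median of each group set to 0, gemin2 had 118 higher and 30 lower after 1 h and 235 and 79 after 24 h. WT then had 81 and 89 after 1 h and 64 and 71 after 24 h. With each library centred, gemin2 had 98 and 57 after 1 h and 178 and 136 after 24 h, and WT 69 and 116 after 1 h and 54 and 86 after 24 h. Of the 340 leader introns, 99 were higher and 4 lower in gemin2 after 24 h of cold, against 16 and 12 in WT.

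Introns that rose with cold in gemin2 include the leader intron of AT5G08560 (546 bp). It had 4.69%, 6.80% and 9.66% in gemin2 after 24 h and 0.666%, 0.583% and 0.499% in gemin2 at 22 °C, a log2 change of 3.57 ± 0.40 (adjusted p = 1.41e-07). In WT it had 0.223%, 0.778% and 0.679% after 24 h and 0.317%, 0% and 0.166% at 22 °C, where 3 counts were seen and no fold is given. The fifth intron of AT4G10430 (865 bp) had 11.8 ± 0.441% in gemin2 after 24 h and 1.04 ± 0.434% in gemin2 at 22 °C, a log2 change of 3.49 ± 0.42 (adjusted p = 6.63e-07).

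Cold also moved introns in both genotypes or in WT. ELF3 encodes a subunit of the evening complex of the clock, and its intron of 1180 bp had 1.65%, 1.43% and 2.35% in gemin2 after 1 h, against 5.12%, 4.30% and 3.63% in gemin2 at 22 °C. In WT it had 0.996%, 0.682% and 1.23% after 1 h, against 4.92%, 8.80% and 8.96% at 22 °C. It fell by 1.28 ± 0.29 on the log2 scale in gemin2 (adjusted p = 0.00494) and by 2.94 ± 0.31 in WT (adjusted p = 3.68e-07). The lectin gene JAL22 had a leader intron (379 bp) with 0.922%, 1.02% and 0.810% in WT after 1 h, against 0.0637%, 0.266% and 0.0746% in WT at 22 °C. It rose by 2.77 ± 0.41 (adjusted p = 6.62e-05), and by 3.70 without WT library B of 22 °C. COR15A also has an intron of 306 bp that held 7758 counts over the WT libraries after 24 h and 0 at 22 °C. These are counts of the intron alone, not set against those of its cold-induced gene, and no fold is given. The intron made up 1.62 ± 0.187% of the gene count in gemin2 and 1.36 ± 0.0428% in WT after 24 h (SD, n = 3 each). EdgeR did not call this difference (log2 change 0.25 ± 0.24, adjusted p = 0.591).

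Whether the cold response of an intron differed between the genotypes was tested as an interaction. After 1 h edgeR called 0 long introns in either direction, beside a background of 0.0641% higher and 0% lower, with 278 at an unadjusted p under 0.05, and DESeq2 called 6. Without gemin2 library A of 1 h, edgeR called 2 higher and 1 lower. After 24 h, the cold response of 17 long introns was higher in gemin2 than in WT (0.787%, background 0.619%) and that of 1 was lower (0.0463%, background 0.0534%), and 8 of these 18 are leader introns. Without gemin2 library C of 22 °C, 8 were called, without gemin2 library A of 24 h 25, and without WT library A of 24 h 12. With the median of each group set to 0, 8 were higher and 1 lower, and with each library centred 5 were higher and 7 lower.

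The smallest adjusted p was that of an intron of 684 bp in AT5G11170, the gene of UAP56A, an RNA helicase of splicing and mRNA export. It had 9.30%, 11.5% and 11.1% in gemin2 after 24 h and 5.19%, 6.13% and 7.49% in gemin2 at 22 °C. In WT it had 3.90%, 4.95% and 5.67% after 24 h and 9.03%, 7.99% and 9.35% at 22 °C. The gemin2 libraries were below WT at 22 °C, without a call (log2 change -0.49 ± 0.17, edgeR adjusted p = 0.0987), and above WT after 24 h. The interaction was 1.62 ± 0.24 on the log2 scale (adjusted p = 6.83e-04). After 24 h its log2 change between genotypes was 1.13 ± 0.17 (adjusted p = 7.33e-06), whereas without the gene's count in the model it was 0.07. AT5G11170 has a near-identical copy close by, AT5G11200, so its counts are uncertain. The leader intron (615 bp) of AT5G18190, a casein kinase-like gene, had 4.75%, 6.07% and 7.22% in gemin2 after 24 h and 2.36%, 2.18% and 2.58% in gemin2 at 22 °C. In WT it had 1.08%, 1.13% and 0.528% after 24 h and 1.58%, 1.10% and 2.15% at 22 °C, and the interaction was 2.15 ± 0.37 (adjusted p = 0.00418).

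The share of higher calls after 24 h was similar across depth, whereas the median log2 change moved with the filter on intron counts. With a mean of at least 20 counts it was 0.06, 0.22 and 0.20 for long introns at the 3 times. For all tested introns it was then 0.08, 0.20 and 0.17. With a mean of at least 3 counts it was 0.11, 0.37 and 0.39 for long introns and 0.11, 0.28 and 0.31 for all tested introns. Of the 1004 long introns with a mean under 20 counts, 20.4% were higher after 24 h, of 967 with 20 to 100 counts 21.3%, and of 189 with 100 or more 18.5%. The longest member, of 7384 bp, is the leader intron of AT1G58602 (RPP7), a resistance gene whose first intron is known to hold a retrotransposon. It had 30.8 ± 2.95% in gemin2 and 31.4 ± 2.64% in WT after 24 h, against 5.60 ± 0.372% and 8.04 ± 1.87% in these genotypes at 22 °C (SD, n = 3 each). With cold of 24 h it rose by 2.46 ± 0.15 in gemin2 (adjusted p = 7.40e-13) and by 1.97 ± 0.15 in WT (adjusted p = 2.81e-10), and an exon of another gene lies in it. Just inside the limit of length, introns of MCCA and UNE6 had 301 bp, and just outside it those of AT5G02450 and ADK1 had 300 bp. At 22 °C they had 1.84% in gemin2 and 0.406% in WT (MCCA), 0.943% and 1.14% (UNE6), 0.487% and 0.414% (AT5G02450), and 0.180% and 0.317% (ADK1).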

How the data were processed

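The authors deposited tables of read counts per gene and per intron for 18 libraries. Per the submitters' processing notes they used TopHat2 2.0.9, TAIR10, R 3.0.2 and edgeR 3.4.2, while the program that counted reads, and whether it used strand, is not given here. Column letters A to C are not tied to the labels' replicate numbers, and columns were matched to groups alone. The value of an intron is its count over the count of its gene. Introns over 300 bp were selected by the filters given above, 2160 in all, and the count test was edgeR's quasi-likelihood test over 6 groups with the gene count as an offset (R 4.3.3, edgeR 4.0.16, limma 3.58.1), adjusted over 9366 introns. SEs were derived from the log2 change and its F statistic. Alternatives were DESeq2 1.42.0, other scalings and filters, a block by library letter and fits that omit 1 library. Setting the median of each group to 0, leaving out the robust estimation and recounting lists without the libraries that stand apart were added after the data were seen. The test was checked on simulated data. Members and gene lists were chosen with earlier results of these data known. The naming rule took the 8 largest rises and falls of each genotype comparison with an adjusted p under 0.05, 20 or more counts on average and groups apart, 4 of each for cold, 3 of each interaction, 8 introns called in all conditions, called introns of listed genes, and the longest, densest and borderline introns. The text describes part of them. Floors are 3 counts and cover counting error only.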

Additional observations from a re-analysis of the deposited data

Results flagged for a closer look

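For 7 of the introns named by the rule, the change between 24 h at 10 °C and 22 °C differed between gemin2 and WT by the interaction term of edgeR's quasi-likelihood test, which put the genotype difference in the cold response itself to the test. In all, 18 long introns had such a term past the threshold. The difference, gemin2 response minus WT response on the log2 scale, was 3.74 for the leader intron of RCD1, 3.10 for that of EDL1, 1.88 for that of FLK and 2.15 for that of AT5G18190. It was 1.62 for the intron of 684 bp in AT5G11170, 0.75 for the intron of 5610 bp in AT1G25054 and -1.61 for the intron of 948 bp in AT4G04330. The EDL1 and AT1G25054 introns overlap other loci, and AT1G25054 has near-identical copies. The AT1G25054 term was lost with each library centred (0.49, edgeR adjusted p = 0.104). The AT4G04330 term was lost without WT library B of 22 °C or WT library C of 24 h (adjusted p = 0.0508 and 0.0706). For the RCD1, EDL1 and FLK terms (edgeR adjusted p = 0.0154, 0.0403 and 0.0124) the values under the other settings are not given here. Without WT library B of 22 °C, 5 long introns were called in place of the 18.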

How the results depend on the processing

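Of 2463 values for 149 results on single introns, 2283 kept their direction and side of the threshold, 173 lost the call and 7 reversed, and 34 results lost the call without some 1 library. Reversed were GEMIN2's own intron without the gene offset (-0.51 by TMM and -0.52 by RLE at 22 °C, -0.34 and -0.29 after 24 h), AT5G19150 after 24 h (-0.16 and -0.10) and AT1G25054 after 24 h with each library centred (-0.0595). Without the offset, TMM and RLE gave 240 and 241 called long introns for gemin2 against WT at 22 °C, 266 and 276 for WT after 1 h of cold, 618 and 612 for WT after 24 h, 839 and 872 for gemin2 after 24 h, 2 and 2 for the interaction at 1 h and 73 and 83 for that at 24 h. Leaving out introns that any exon overlaps kept 1177 of the 2160 long introns. It gave 49, 212 and 272 for the genotypes at the 3 times, against 139, 398 and 504 with all long introns. It gave 88 and 51 for WT cold, against 169 and 140, and 150 and 225 for gemin2 cold, against 233 and 410. The interaction at 24 h then had 11, against 18. A mean of at least 20 counts gave 246 and 274 for the genotypes in the cold and 240 for gemin2 after 24 h, and a mean of at least 3 gave 1 for the interaction at 1 h. With libraries centred, gemin2 after 1 h had 155, with groups centred 148, and the interaction at 24 h then had 9. A fit of only the compared groups gave 60 for WT after 24 h and 2 for the interaction at 1 h. DESeq2 gave 6 and 42 for the interactions. The cause of these changes was not tested. With 1 library left out the counts ran from 96 to 122, 271 to 414 and 377 to 525 for the genotypes, 94 to 156 and 75 to 109 for WT cold, 137 to 183 and 282 to 392 for gemin2 cold, and 0 to 4 and 5 to 25 for the interactions.

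Library letters did not pair the samples: 21 correlations of same-letter deviations ran from -0.126 to 0.0745. With a replicate block by letter, 163, 443 and 537 long introns were called between genotypes, and 2 for the interaction at 1 h. Introns with few counts in WT limit the precision of the largest folds.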
